A study of Rattus norvegicus with 4 samples.

Results

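Astrocytes made up 1544 of the 26228 nuclei, or 5.89%, in a single-nucleus RNA-seq data set of the rat nucleus accumbens after repeated cocaine or saline. They were picked out nucleus by nucleus from the raw UMI counts (UMIs are molecular tags, so each stands for 1 captured RNA molecule). A nucleus was taken as an astrocyte when it had at least 200 detected genes, at least 10 UMIs of the glutamate transporters Slc1a2 and Slc1a3 together and at least 1 UMI of Agt, Slc7a10 or Acsbg1. It also had to have at most 1 UMI of Drd2 and Ebf1 together and at most 1 of Gad1 and Gad2 together. Those 9 genes are therefore described below without a test.

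Astrocytes are the glia that clear glutamate and GABA from around synapses, buffer potassium, pass water and metabolites, and release factors that act on neurons and vessels. In the striatum, of which the nucleus accumbens is the ventral part, they lie among GABA-releasing spiny projection neurons that are driven by glutamate and dopamine. Cocaine raises extracellular dopamine by blocking its reuptake. Agt, which encodes the precursor of the angiotensin peptides, is made in the brain mainly by astrocytes and not by all of them.

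The study used 16 Sprague-Dawley rats aged 90 to 120 days and compared cocaine (20 mg/kg, intraperitoneal) with an equal volume of saline, injected once a day for 7 days and placed in an open field each time. The accumbens was collected 1 hour after the final dose, with a 2 mm punch centred on the core of the nucleus accumbens. The 4 rats of a treatment and sex were combined, so each of the 4 libraries is 1 pool: saline female, saline male, cocaine female and cocaine male. Nuclei were sorted by flow cytometry and run on the 10x Genomics 3′ v3 chemistry. With 2 pools per treatment, no p-value measures the spread between animals, and the sexes serve as the replicates of each treatment. In the edgeR fits of treatment and sex, 4 libraries say little on the spread of any single gene. The error of a gene there comes mostly from a trend shared by all genes, weighted as 18.2 prior degrees of freedom. Their small p-values are thus not a measure of that gene's own spread between pools.

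The libraries held 6213 to 7265 barcodes and 31484217 to 40737786 UMIs, and every barcode had at least 200 genes. Pairs of libraries shared 10 to 18 barcode sequences, and no astrocyte barcode was shared. The astrocytes held 5302752 UMIs in all. Their median UMI count was 3681 in the saline female, 2946 in the saline male, 3377 in the cocaine female and 2757 in the cocaine male library, so female astrocytes were read more deeply than male ones. Spiny neuron nuclei, chosen by Gad1, Gad2, Bcl11b, Rarb and Rgs9, had medians of 7185 to 9903 UMIs. Oligodendrocyte nuclei, chosen by myelin genes, had medians of 1547 to 2041.5 UMIs.

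Astrocytes were 6.04% of nuclei in the saline female library (385 of 6375, exact Clopper-Pearson 95% interval 5.47 to 6.65) and 6.26% in the saline male library (389 of 6213, 5.67 to 6.89). They were 5.66% in the cocaine female library (411 of 7265, 5.14 to 6.21) and 5.63% in the cocaine male library (359 of 6375, 5.08 to 6.23). Both cocaine libraries lay below both saline libraries, at 5.64% ± 0.0183 against 6.15% ± 0.157 (SD, n = 2 libraries each), and the cocaine value dropped by 0.506 percentage points. A two-sided exact permutation test gave p = 0.333, the smallest that 2 libraries against 2 can give. The intervals cover counting error only.

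Nuclei just inside and just outside the transporter threshold were similar in number. There were 75 nuclei with 10 or 11 transporter UMIs just inside it and 71 with 8 or 9 just outside that met every other condition. Gpc5, a glypican used as a marker but not by the rule, stood at 9384 CPM (UMIs per 1000000 UMIs of the class) inside and 8922 outside, against 13747 in the 1469 nuclei with 12 or more. The neuronal gene Rbfox3 stood at 37.1 CPM inside and 120 outside, against 36.6 with 12 or more. The oligodendrocyte gene Mbp stood at 348 inside and 250 outside, against 120 with 12 or more. A further 186 nuclei had enough transporter UMIs and no UMI of Agt, Slc7a10 or Acsbg1, and 98 failed only the limits on neuronal genes.

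The chosen nuclei carried a full set of astrocyte genes. Of 40 identity genes, 35 were outside the rule, and all 35 were more than 2-fold higher in astrocytes than in all other nuclei in each of the 4 libraries. For 31 of the 35 the ratio was above 10-fold in each library, and the median ratio over the 35 was 40.1. These ratios describe the choice and were not tested.

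Slc1a2, the main glutamate transporter of the forebrain, stood at 6177, 8253, 6863 and 8071 CPM in the saline female, saline male, cocaine female and cocaine male astrocytes, and the 4 libraries are kept in that order throughout. All other nuclei were at 62.4 to 85.0, which gives a ratio of 101 (95.0 to 110 over the libraries). The amino acid carrier Slc7a10 (124-fold) and the fatty acid ligase Acsbg1 (126-fold) were as selective, and both belong to the rule. Agt stood at 493, 414, 394 and 334 CPM against 4.95 to 8.46 in other nuclei, and both cocaine values lay below both saline values. Gpc5 stood at 12047, 15610, 13098 and 14014 CPM, 36.1-fold above other nuclei.

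Genes outside the rule marked each classic astrocyte task. The water channel Aqp4 was 71.2-fold higher than in other nuclei, the gap junction protein Gja1 87.0-fold and the folate enzyme Aldh1l1 91.3-fold. Glutamine synthetase, encoded by Glul, was 16.9-fold higher. Oligodendrocytes also carried it: after each nucleus was thinned to 1500 UMIs, up to 21.0% of oligodendrocyte nuclei had a Glul UMI, against 45.0 to 48.2% of astrocytes and at most 1.46% of spiny neuron nuclei. Slc4a4, a bicarbonate transporter, had the smallest ratio of the list at 5.39-fold, and 41.4 to 53.5% of thinned spiny neuron nuclei had a UMI of it. The cytoskeletal gene Gfap was 40.1-fold higher, yet only 14.5 to 15.9% of thinned astrocytes had a UMI of it.

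Across all genes with a symbol and at least 100 astrocyte UMIs, the highest ratio was that of Alb at 182-fold, from only 103 UMIs. It was followed, beside rule genes, by the aminotransferase family member Etnppl (122-fold), the lysine-degrading Aass (118-fold), Cyp4f4 (116-fold), the peptide transporter Slc15a2 (114-fold), the aquaglyceroporin Aqp9 (112-fold) and Gucy1b2 (104-fold). Prodh1, which starts proline breakdown, was 93.9-fold higher and Dio2, which activates thyroid hormone, 93.8-fold higher. The plot of identity genes shows the list by library.

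**Figure D1:**
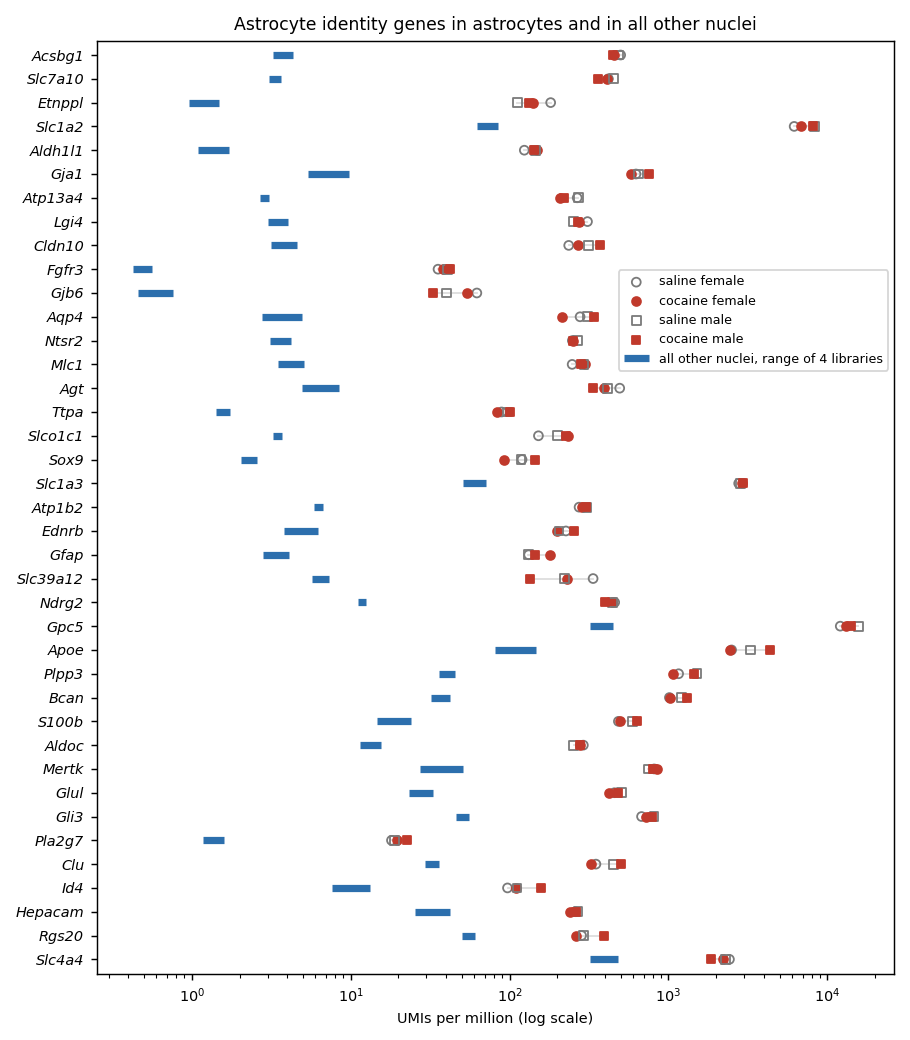
Level of astrocyte identity genes in CPM (log axis), with 1 point per astrocyte library and a blue bar for the range of all other nuclei over the 4 libraries, ordered by ratio. Points and bars are apart for every gene, and Slc4a4 at the bottom has the smallest ratio, 5.39-fold.

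Markers of other cell types were present at low levels, though not always below their level in all other nuclei together. The ependymal genes Tmem212 and Ccdc153 and the oligodendrocyte precursor gene Gpr17 had 0 UMIs in all 1544 astrocytes. All other detected members of these lists had UMIs, the most being 89 for the ependymal Dnah12 and 187 for the precursor gene Vcan. The summed microglia list (12 genes) stood at 24.6 to 115 CPM, or 20.9 to 57.9% of its level in all other nuclei, and was highest in the cocaine male library. The precursor list stood at 46.7 to 75.0 CPM (27.9 to 43.2%) and the ependymal list at 18.2 to 36.9 CPM (42.6 to 75.0%). The oligodendrocyte list stood at 350 to 561 CPM, or 16.3 to 20.7% of its level in all other nuclei. The vascular list stood at 131 to 190 CPM, which is 1163 to 1827% of its level in all other nuclei, and Pdgfrb alone supplied 129 to 186 of that, while the other 6 detected vascular genes had 7 or fewer UMIs each in all astrocytes. Nuclei with 5 or more UMIs of these lists together numbered 29, 14, 34 and 19.

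Neuronal RNA was present at a low level and was not even across the libraries. The pan-neuronal list summed to 384 and 136 CPM in the saline female and saline male astrocytes and to 396 and 245 in the cocaine female and cocaine male astrocytes. Both female libraries were above both male ones. The spiny neuron list, with Pde10a left out, summed to 1586 and 1331 with saline and to 1919 and 1727 with cocaine, so both cocaine libraries were above both saline ones. Pde7b alone supplied 671 and 514 of these sums with saline and 918 and 646 with cocaine, at 32.5 to 52.6% of its spiny neuron level. For 31 neuronal genes outside the rule, the median level in astrocytes was 6.99, 2.95, 7.88 and 6.25% of that in spiny neuron nuclei of the same library. Only 8 astrocytes, 1, 0, 5 and 2 by library, had 1% or more of their UMIs from these lists.

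Astrocytes varied among themselves well beyond counting noise for some genes. Among 4259 genes with a mean of at least 0.05 UMIs per thinned nucleus, the median ratio of variance to mean was 1.06, and a value of 1 is what counting alone gives. Sgcz, a sarcoglycan, led with at least 4.35 in every library, followed by Nkain2 (3.69), the cation channel gene Trpm3 (3.33), Mbp (3.31), Cntnap2 (3.23), Rbfox1 (3.16) and the neuregulin receptor gene Erbb4 (3.06). Mbp, Nkain2 and Rbfox1 had means of 0.158, 0.313 and 0.288 UMIs per nucleus, whereas Sgcz and Trpm3 had means of 4.54 and 5.36. Agt ranked 41 of 4259 with at least 1.91.

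Agt divided the chosen astrocytes into nuclei with and without detected message in nearly the same proportion in every library. The rule kept a nucleus without an Agt UMI only if it had Slc7a10 or Acsbg1. The 186 nuclei with enough transporter UMIs and none of the 3 genes are not counted, so these shares depend on the rule. Without thinning, 59.5, 48.1, 52.1 and 47.1% of astrocytes had an Agt UMI, following their depth. At 1500 UMIs per nucleus the shares were 39.3, 37.7, 38.6 and 36.6%, from 382, 382, 409 and 344 nuclei that were deep enough, with 3, 7, 2 and 15 left out. Raw Agt counts reached 12, 10, 13 and 12 UMIs in a single nucleus, and nuclei with 6 or more numbered 39, 22, 27 and 9. The cocaine male library had the fewest of these. An Agt-negative nucleus here is one without an Agt UMI after thinning, and some of these had Agt UMIs before it: the saline female library held 232 Agt-negative nuclei and 156 with 0 Agt UMIs unthinned.

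Sums of Agt-positive and Agt-negative astrocytes, 4 libraries each, differed in 366 of 5457 genes tested (6.71%), 199 higher (3.65%) and 167 lower (3.06%) in Agt-positive nuclei, by edgeR's quasi-likelihood test with library as a block and a Benjamini-Hochberg adjusted p below 0.05. DESeq2 called 120, and all 120 were among the 366. The edgeR fit found no difference in spread between genes, so its errors come from a trend shared by all genes. The 2 classes come from the same pools of rats, and the library block takes out the spread between pools. These p-values thus set the class difference within libraries against that shared trend, and measure no spread between animals. Leaving out any 1 library left 234 to 368 genes called. Every gene named for this comparison had the same sign in the main fit and in all 11 other settings.

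Genes higher with Agt were led by Erbb4, the receptor tyrosine kinase for neuregulins. Erbb4 stood at 2183, 1495, 1500 and 862 CPM in Agt-positive nuclei and at 715, 268, 429 and 281 in Agt-negative nuclei, so no Agt-negative library reached any Agt-positive one. Its log2 ratio was 1.85 ± 0.0982 (SE, adjusted p = 6.34e-75 by edgeR). The basement membrane laminin Lama2 stood at 495, 547, 373 and 117 against 91.8, 63.1, 73.4 and 23.7, a log2 ratio of 2.58. Further genes in this direction were the hyaluronan-associated Itih3 (1.13), Trpm3 (0.79), Nnat, an endoplasmic reticulum proteolipid (1.33), the heparan sulfate enzyme Hs6st3 (2.13), the potassium channel Kcnd2 (0.80) and the calcium-stimulated adenylyl cyclase Adcy8 (1.89). The cocaine male library held the lowest Agt-positive value for all of these genes but Nnat.

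Transport genes were among those higher with Agt. Slc6a11, the astrocytic GABA transporter also called GAT-3, stood at 559, 781, 354 and 239 CPM with Agt and at 272, 224, 176 and 193 without, a log2 ratio of 1.14 ± 0.135 (adjusted p = 6.67e-15 by edgeR). The classes lay nearest to each other in the cocaine male library. Slc4a4 (log2 ratio 0.72), the inward rectifier subunit Kcnj16 (1.60) and the zinc transporter Slc39a12 (1.02) were also higher with Agt. Of 10 GABA genes tested, 3 were higher (Slc6a11, the receptor subunit Gabbr2 and the GABA-degrading Abat) and 1, the monoamine oxidase Maob, was lower. Of all genes, 3.65% were called higher and 3.06% lower. The list median log2 ratio was 0.0369, and all genes tested had a median of 0.00277.

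Genes lower with Agt were led by Sgcz, at 1569, 2162, 1919 and 2564 CPM with Agt and 3572, 4310, 4272 and 4484 without. Its log2 ratio was -1.03 ± 0.0725 (adjusted p = 1.67e-42 by edgeR), and the classes did not overlap. Cntnap2, a contactin-associated adhesion protein, had a log2 ratio of -1.05, Fam163a of -1.58, the sialyltransferase St6galnac5 of -1.56, the cadherin Cdh4 of -1.08 and the receptor kinase Alk of -0.98. Grm3, the metabotropic glutamate receptor typical of adult astrocytes, stood at 1005, 1672, 1463 and 1748 with Agt and 2034, 3010, 2178 and 2421 without (-0.72). The glycine cleavage enzyme Gldc (-1.03) and the cystine transporter Slc7a11 (-0.45) were lower too.

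Secreted and adhesion genes that act at synapses split in both directions. Of 26 such genes tested, 5 were higher with Agt and 9 lower, with a list median of -0.13, where 3.65% of all genes were called higher and 3.06% lower. Sparc (1.35), Sparcl1 (0.67) and Lrrc4c, a netrin-G ligand (1.28), were among the higher, and Ptn (-0.77), Gpc6 (-0.67), Ephb1 (-1.09) and Tenm2 (-1.40) among the lower. Of 7 phosphodiesterase genes tested, 4 were called, all higher with Agt (3.65% of all genes were): Pde4b (0.64), Pde4d (0.51), Pde7b (0.56) and Pde9a (0.52). Of 12 genes on a list of region and subtype genes, 6 were higher and 2 lower, the latter Lhx2 (-1.20) and Id3 (-0.55). Of 34 general identity genes tested, 7 were called, 5 higher and 2 lower, with a list median of 0.0604, where 6.71% of all genes were called. Gpc5 was lower with Agt by a small amount (-0.18, adjusted p = 0.0270 by edgeR), and that call was lost in 4 of 11 other settings.

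**Figure D2:**
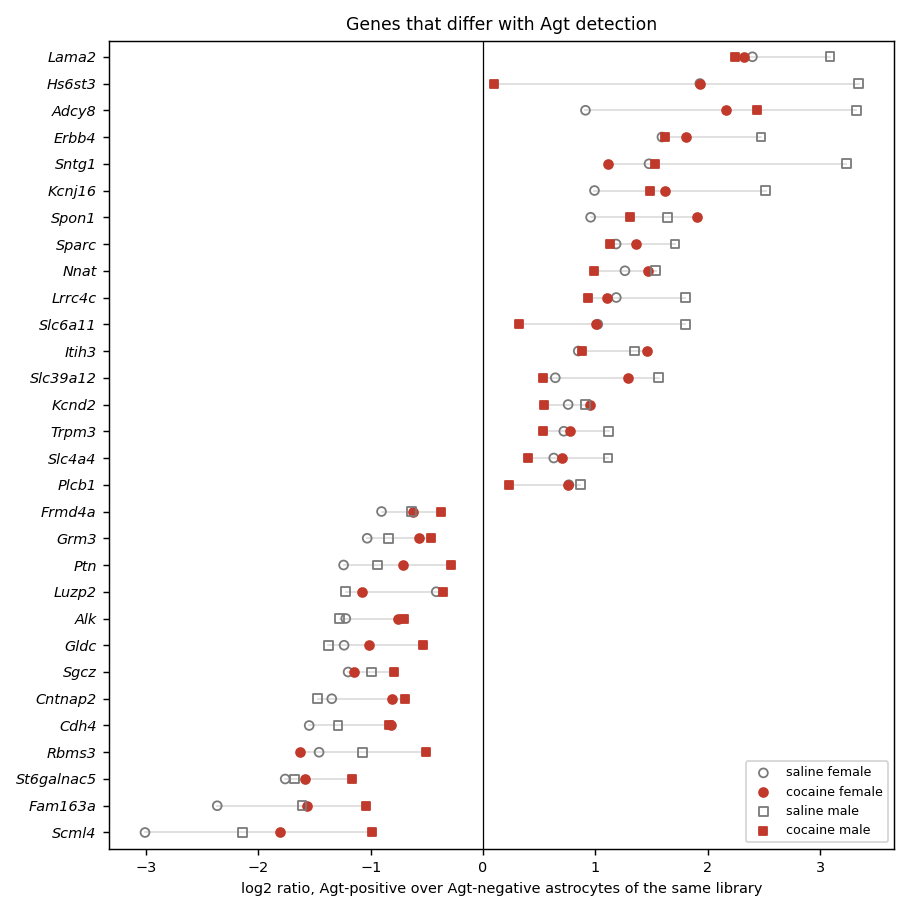
log2 ratio of each gene in Agt-positive over Agt-negative astrocytes of the same library, 1 point per library, for the genes with the smallest adjusted p in each direction and 6 further list genes. Every point lies on its gene's side of 0, which for the genes of smallest adjusted p was a condition of their choice. The cocaine male point lies nearest to 0 for many genes, among them Hs6st3, Slc6a11, Trpm3, Nnat, Kcnd2, Sgcz, Cntnap2 and Grm3. It does not for others, such as Erbb4, Itih3, Adcy8 and Sntg1.

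Cocaine and saline astrocytes differed in 76 of 10327 genes tested (0.736%), 32 higher (0.31%) and 44 lower (0.426%) with cocaine, by edgeR's quasi-likelihood test with sex as covariate and a Benjamini-Hochberg adjusted p below 0.05. The phosphodiesterase Pde10a rose most firmly. Among the genes that fell were the GABA transporter Slc6a11, the potassium channel subunit Kcnj16, the neuregulin receptor Erbb4 and the hedgehog receptor Ptch1. Of 35 general identity genes tested, Slc39a12 alone was called, and the gap junction, lipid and reactive astrocyte lists gave no call. The change had the same sign in both sexes for 75 of the 76. In 62 of the 76 both cocaine libraries lay on one side of both saline libraries. Both counts come from the values by which these genes were called, so they are no separate evidence. The shares over all 10327 genes are not given here.

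The number of calls depended strongly on the model and on single libraries. DESeq2 called 3 genes, Pde10a, Slc6a11 and Nnat, all also called by edgeR. Without the sex term edgeR called 0, with 475 genes at an unadjusted p below 0.05, against 824 with it. Without the saline female or the saline male library it called 0 (480 and 596 at an unadjusted p below 0.05), and it called 3 when the cocaine female and 14 when the cocaine male library was left out. These 3-library fits have no sex term. None of the 31 named genes tested passed in every setting.

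Pde10a breaks down cyclic AMP and cyclic GMP and is known above all from striatal spiny neurons. In astrocytes it stood at 126 and 49.6 CPM in the saline female and saline male libraries and at 573 and 309 in the cocaine female and cocaine male libraries (187, 58, 855 and 339 UMIs), after TMM scaling, which is used for all levels in the treatment and sex comparisons. Both cocaine libraries were above both saline libraries. The log2 fold change was 2.34 ± 0.134 (SE, adjusted p = 3.15e-09 by edgeR), with 2.19 in females and 2.69 in males. It kept its sign in all 15 alternatives and its call in 11. The call was lost without the sex term and without the saline female, the saline male or the cocaine female library, where the fold change was 1.78 to 3.15.

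More astrocytes carried Pde10a with cocaine, and they carried more of it. Astrocytes with 3 or more Pde10a UMIs were 15 of 385 in the saline female library (3.90%, exact Clopper-Pearson 95% interval 2.20 to 6.34) and 4 of 389 in the saline male library (1.03%, 0.281 to 2.61). They were 100 of 411 in the cocaine female library (24.3%, 20.3 to 28.8) and 38 of 359 in the cocaine male library (10.6%, 7.60 to 14.2). The 5 highest nuclei held 14.6 and 22.7% of the Pde10a UMIs in the cocaine libraries, so the level did not rest on a handful of nuclei there, whereas they held 49.2% in the saline female library, where 1 nucleus had 49 UMIs. At 1500 UMIs per nucleus, 7.59, 7.07, 30.6 and 19.8% of astrocytes had a Pde10a UMI. In oligodendrocyte nuclei thinned in the same way the shares were 4.50, 8.19, 6.31 and 7.54%, and in spiny neuron nuclei 81.8 to 90.1%. The Pde10a level in oligodendrocyte nuclei was 64.2 and 96.8 CPM with saline and 153 and 119 with cocaine, a log2 fold change of 0.80 that did not pass (adjusted p = 0.137 by edgeR).

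The Pde10a-carrying nuclei also carried astrocyte genes, some at higher and some at lower levels than nuclei without Pde10a. In the 100 cocaine female nuclei with 3 or more Pde10a UMIs, Slc1a2 stood at 6298 and Gpc5 at 12643 CPM, against 7369 and 13662 in the 244 nuclei without Pde10a. In the 38 such cocaine male nuclei they stood at 8445 and 15617, against 8098 and 13734 in 269 nuclei. Aqp4 stood at 167 against 245 CPM and Gja1 at 521 against 614 in the cocaine female nuclei, and at 322 against 357 and 693 against 745 in the cocaine male nuclei. Agt stood at 464 against 351 in the cocaine female and at 249.8 against 314 in the cocaine male nuclei, so it went opposite ways. The pan-neuronal gene Rbfox3 had no UMI in 85.0 and 78.9% of the Pde10a-carrying nuclei, and in 96.3 and 94.8% of those without. Their median share of neuronal-list UMIs, with Pde10a left out, was 0.264 and 0.264%, against 0.144 and 0.160% without Pde10a, and the neuronal gene Syt1 stood at 349 and 218 against 33.6 and 36.8 CPM. Nuclei with high doublet scores were 7 of the 100 and 2 of the 38. Pde10a-carrying astrocytes thus also held more neuronal RNA, and the part of that RNA in the Pde10a difference was not tested.

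Pde10a was also set beside the 31 other neuronal genes, whose levels in astrocytes varied widely. As a percentage of the level in spiny neuron nuclei it stood at 5.83 and 1.89% in saline and 24.9 and 12.2% in cocaine, while the median of the 31 genes was 6.99 and 2.95% in saline and 7.88 and 6.25% in cocaine. Pde10a lay below that median in both saline libraries and above it in both cocaine libraries, where it ranked 5 and 9 from the top, so several other neuronal genes stood at a higher percentage there. In spiny neuron nuclei themselves it stood at 2148, 2515, 2305 and 2527 CPM. The test of the difference between the classes gave a cocaine log2 fold change larger in astrocytes than in spiny neurons by 2.31 ± 0.179 (adjusted p = 8.35e-10 by edgeR) and larger than in oligodendrocytes by 1.50 ± 0.205 (adjusted p = 3.76e-05). With the astrocytes richest in neuronal RNA left out the gene was still called.

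**Figure D3:**
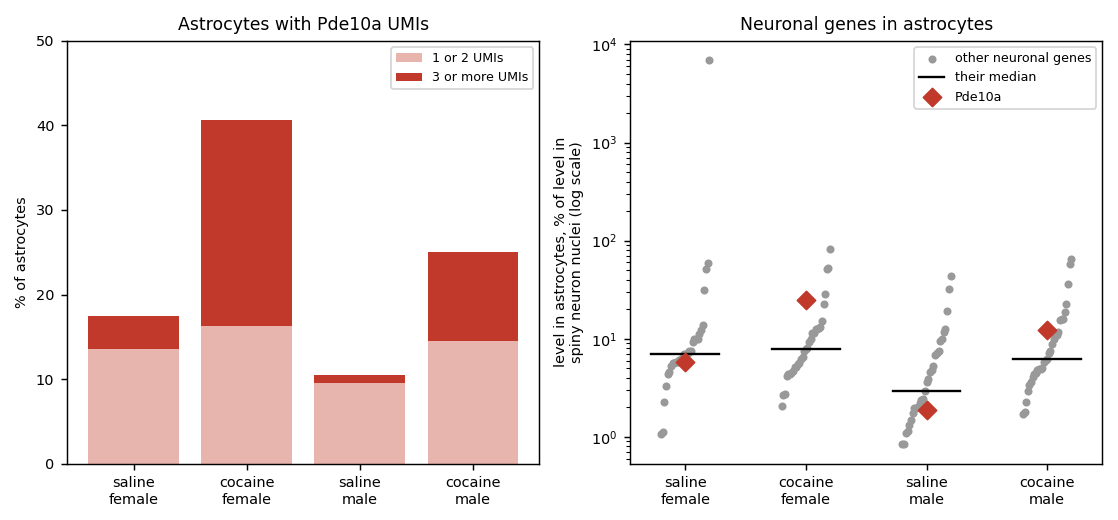
Left, share of astrocytes with Pde10a UMIs in each library, split by count. Right, level in astrocytes as a percentage of that in spiny neuron nuclei (log axis) for Pde10a (diamond) and 31 other neuronal genes (points, genes at 0 not drawn) with their median (line). The far point in the saline female library is Slc17a7, a cortical gene nearly absent from spiny neurons, and Pde10a lies above the median only in the cocaine libraries.

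Other genes that rose with cocaine fell into 2 kinds by how their UMIs were spread. Fkbp5, Hdac4, Ell2 and Ca12 were spread over many nuclei, with 6.05 to 18.3% of UMIs in the 5 highest nuclei of the cocaine libraries. Cntn5, Tafa2, Foxp2, Lrrtm4, Grm7, Marchf1, Nrg1 and Ccbe1 were concentrated, with 37.1 to 86.4% in the 5 highest nuclei. For Cntn5, an adhesion molecule of the contactin family, 107 of the 214 cocaine female UMIs came from 1 nucleus, and 7.06% of nuclei there had any UMI against 3.38% in the saline female library. In the male libraries 2.83% of saline and 2.79% of cocaine nuclei had a Cntn5 UMI. Lrrtm4, a synaptic adhesion gene, was higher with cocaine within each sex (0.79 in females and 1.68 in males). Its value was -0.68 without the cocaine female library. That fit has no sex term and sets the cocaine male library against saline libraries of both sexes.

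Fkbp5, a co-chaperone of the glucocorticoid receptor that is itself induced by that receptor, stood at 202 and 103 CPM in saline and 274 and 211 in cocaine. The groups did not overlap, and the log2 fold change was 0.69 ± 0.139 (adjusted p = 0.0211 by edgeR), with 0.45 in females and 1.10 in males. Of 23 glucocorticoid-responsive genes tested, Fkbp5 alone was called, where 0.736% of all genes were. By edgeR 5 of the 23 had an unadjusted p below 0.05, against 824 of all 10327 genes. Of the 23, 8 were higher and 15 lower, and the list median was -0.16. Hdac4, a histone deacetylase, stood at 292 and 250 against 455 and 353 (0.57, adjusted p = 0.0139). The elongation factor gene Ell2 stood at 208 and 185 against 340 and 284 (0.67, adjusted p = 0.00579), and the carbonic anhydrase Ca12 at 257 and 257 against 490 and 327 (0.66, adjusted p = 0.0149). Further genes higher with cocaine included the metabolic enzymes Gpt2 (0.52) and Cbs (0.51) and Dio2 (0.81).

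Of the named genes that fell, Kcnc2 (35.0 and 54.4%) and Ldb2 (24.8 and 34.5%) had the largest shares of saline UMIs in the 5 highest nuclei, and the rest had 5.56 to 25.5%. Slc6a11 stood at 382 and 424 CPM in saline and 215 and 206 in cocaine. The groups were far apart, and the log2 fold change was -0.93 ± 0.113 (adjusted p = 0.000376 by edgeR), with -0.81 in females and -0.98 in males. The share of thinned astrocytes with a Slc6a11 UMI was 32.7 and 34.0% in saline and 24.9 and 23.5% in cocaine. Across the 15 alternatives the fold change ran from -1.01 to -0.72. The call was lost without the sex term and without any 1 of the 4 libraries. No GABA gene but Slc6a11 was called among 10 tested, where 0.736% of all genes were, with a list median of -0.15.

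Nnat stood at 501 and 541 CPM in saline and 237 and 331 in cocaine (-0.90 ± 0.115, adjusted p = 0.000615 by edgeR). Slc25a18, a mitochondrial glutamate carrier, stood at 225 and 215 against 137 and 124 (-0.75, adjusted p = 0.00568), and Acss1, which makes acetyl-CoA in mitochondria, at 413 and 435 against 278 and 323 (-0.50, adjusted p = 0.0332). All 3 genes had both cocaine libraries below both saline libraries. Acss1 was the only call among 16 glycogen, glucose and lactate genes, where 0.736% of all genes were called.

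Kcnj16, which pairs with the main astrocytic potassium channel subunit Kcnj10, stood at 63.4 and 48.8 CPM in saline and 30.8 and 24.6 in cocaine (-1.02 ± 0.220, adjusted p = 0.0333 by edgeR). It was the only call among 13 potassium, water and ion transport genes, where 0.736% of all genes were called. Of the 13, 11 were lower and 2 higher (list median -0.16). Kcnj10 itself stood at 120 and 126 against 114 and 94.7 (adjusted p = 0.774). The Kcnj16 counts were small, 27 to 94 UMIs per library, and the call held in 3 of 15 alternatives. Kcnc2, a voltage-gated potassium channel, stood at 110 and 48.8 against 37.6 and 21.0 (-1.44, adjusted p = 0.00104).

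Of 17 receptor and calcium genes tested, Erbb4 alone was called, where 0.736% of all genes were, with 11 higher, 6 lower and a list median of 0.018. Erbb4 stood at 1185 and 719 CPM in saline and 747 and 494 in cocaine (-0.61 ± 0.103, adjusted p = 0.00579 by edgeR). The sexes differed enough that the saline male value lay below the cocaine female one, while each sex showed the fall. Its ligand gene Nrg1 stood at 76.2 and 58.2 against 144 and 146 (1.09, adjusted p = 0.00104), with 47.2 and 66.9% of the cocaine UMIs in 5 nuclei. Ptch1, the receptor for Sonic hedgehog, stood at 297 and 277 against 176 and 182 (-0.69, adjusted p = 0.00579). Further called genes were the scaffold gene Mpp6 (-0.94), Adcy8 (-0.87), Sntg1 (-1.05), Cables1 (-0.61), Slc39a12 (-0.66), Itih3 (-0.50), the neurotrophin receptor Ntrk3 (-0.55), the secreted Spon1 (-0.63), Lama2 (-1.04) and the guidance cue Ntn1 (-0.97). Of 31 synapse-directed genes tested, Lrrc4c alone was called (-0.61), against 0.736% of all genes, with 10 higher, 21 lower and a list median of -0.068.

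Several lists gave no call. Of 11 immediate-early genes that passed the low-count filter, out of 31 in the files, edgeR called 0, with 2 at an unadjusted p below 0.05. Nr4a3, a nuclear receptor of that list, stood at 5.40 and 5.13 CPM in saline and 23.5 and 10.0 in cocaine, from 6 to 35 UMIs per library (1.68 ± 0.450, adjusted p = 0.122). Of 8 reactive astrocyte genes tested, out of 26, 0 were called and 1 had an unadjusted p below 0.05, and Gfap stood at 133 and 137 against 178 and 145 (adjusted p = 0.652). The 24 lipid and cholesterol genes (2 at an unadjusted p below 0.05), the 17 circadian clock genes (0), the 7 glutamate genes (1) and the 3 gap junction genes (1) gave 0 calls by edgeR and by DESeq2. With 0.736% of all genes called, nothing is read from a count of 0 in lists this small. The median log2 fold change over all genes tested was 0.000893.

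The neuronal lists moved with treatment in part. Of 14 spiny neuron genes tested, all 14 were higher with cocaine, with a median of 0.54, and 2 were called, Pde10a and Foxp2 (0.736% of all genes were called). Of 8 pan-neuronal genes, 6 were higher and 2 lower with a median of 0.32, and edgeR and DESeq2 called 0, with 2 at an unadjusted p below 0.05. The members that passed the filter are a part of each list, so these medians describe only them. With the nuclei of highest neuronal share left out, 41 genes were called, 10 higher and 31 lower, and 37 of them were among the 76. Without nuclei of high doublet score 14 were called, 3 higher and 11 lower, and all 14 were among the 76. Fewer higher calls were left in both settings. Without nuclei carrying other glial or vascular genes 78 were called, 40 higher and 38 lower.

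**Figure D4:**
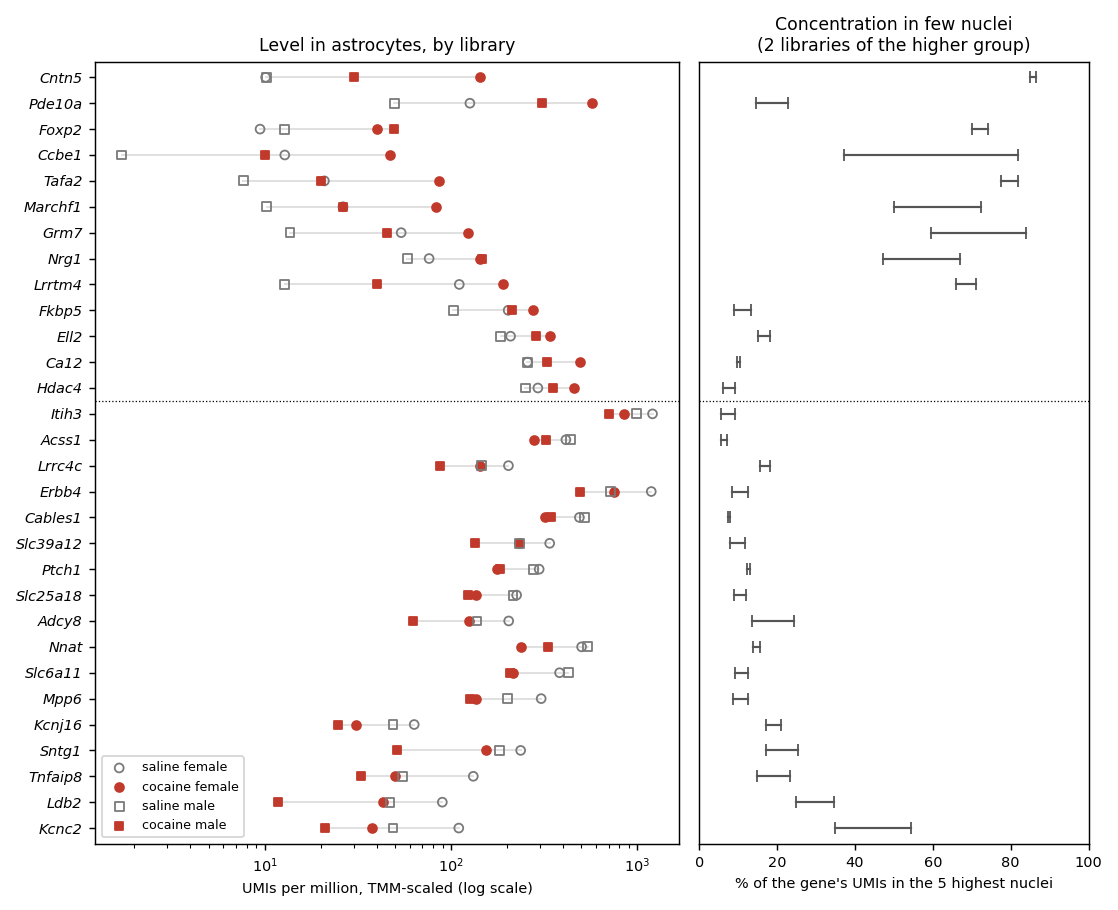
Left, level of the 30 named genes called between cocaine and saline in astrocytes, 1 point per library (log axis), with genes that rose above the dotted line. Right, share of each gene's UMIs in the 5 highest nuclei, for both libraries of the group where it was higher. The named genes that fell are mostly below 30%, and Cntn5, Tafa2, Foxp2 and Lrrtm4 are above 60% in both.

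The cocaine and Agt comparisons use the same 4 libraries, so for some of the genes named for cocaine, picked after their values were seen, the values are only given side by side. Slc6a11 had a cocaine log2 fold change of -0.93 and an Agt-positive over Agt-negative log2 ratio of 1.14. For Nnat the values were -0.90 and 1.33, for Erbb4 -0.61 and 1.85, for Sntg1 -1.05 and 1.84, for Slc25a18 -0.75 and 1.34, for Tnfaip8 -1.17 and 1.48 and for Kcnj16 -1.02 and 1.60. Acss1 (0.10, adjusted p = 0.817) and Pde10a (0.25, adjusted p = 0.461) did not pass the test between the Agt classes. Nrg1 and Ca12, which rose with cocaine, were lower with Agt (-1.84 and -1.12).

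Cocaine was also compared with saline within each Agt class, a setting chosen after the data were seen. In Agt-positive nuclei Slc6a11 fell by 1.14 on the log2 scale (adjusted p = 8.41e-06 by edgeR), and in Agt-negative nuclei its value was -0.43 (adjusted p = 0.655). Pde10a rose in both, by 3.57 in Agt-positive and 1.99 in Agt-negative nuclei (adjusted p = 5.75e-31 and 9.76e-18). Nnat was -0.85 and -0.65 (adjusted p = 0.000395 and 0.0800), and Sntg1 -1.49 and -0.56 (adjusted p = 3.15e-06 and 0.812). Mpp6 ran the other way, at -0.50 and -1.44 (adjusted p = 0.422 and 8.52e-05). Whether the cocaine effect differs between the classes was not tested. In all, 31 of 4808 genes (0.645%) were called in Agt-positive and 17 of 6411 (0.265%) in Agt-negative nuclei.

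The cocaine effect of astrocytes differed from that of spiny neurons in 71 of 14681 genes tested (0.484%), with 49 differences positive (0.334%) and 22 negative (0.15%), by the class-by-treatment term of edgeR with library as a block. Beside Pde10a, the falls of Nnat (difference -0.90), Mpp6 (-1.15), Ptch1 (-0.71), Ldb2 (-1.22), Sntg1 (-0.96) and Slc6a11 (-0.71, adjusted p = 0.0427) were larger than in spiny neurons. Ell2 rose in both classes, by 0.67 in astrocytes and 0.78 in spiny neurons, with a difference of -0.11 ± 0.131 (adjusted p = 0.981). Adcy8 fell in both, by 0.87 and 1.08. Nr4a3 rose by 1.91 in spiny neurons (24.4 and 21.2 CPM with saline, 92.2 and 78.9 with cocaine), and its difference from astrocytes was -0.18 ± 0.466. For Fkbp5 the spiny neuron value was 0.14 and the difference 0.55 ± 0.147 (adjusted p = 0.114).

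Against oligodendrocytes the effect differed in 132 of 12102 genes (1.09%), 21 positive (0.174%) and 111 negative (0.917%). The difference was 0.83 for Ell2, 0.62 for Hdac4, -1.26 for Nnat, -0.73 for Ptch1 and -1.17 for Sntg1. Nrg1 rose by 1.11 in oligodendrocytes as well, with a difference of -0.023 ± 0.200. Without 1 library, 0 to 109 genes differed from spiny neurons (0 without the cocaine female library, with 557 at an unadjusted p below 0.05) and 1 to 14 from oligodendrocytes.

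Male and female astrocytes differed in 173 of 10327 genes (1.68%), 51 higher (0.494%) and 122 lower (1.18%) in males, by the sex term of the same edgeR fit. DESeq2 called 18, all among the 173. The Y-linked genes Kdm5d and Eif2s3y stood at 58.3 to 70.1 CPM in the male and at most 0.675 in the female libraries, which matches the labels. Without 1 library, 113 to 183 genes were called.

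Among genes with a symbol, those higher in females with the smallest adjusted p were known from neurons. Kcnip4, a potassium channel-interacting protein, stood at 194 (saline) and 318 (cocaine) CPM in females and at 29.9 and 45.5 in males (male over female -2.75 ± 0.155, adjusted p = 8.05e-10 by edgeR). Dpp10 (-2.99), Lrrtm4 (-2.53), Opcml (-1.97), the synaptic vesicle gene Syt1 (-1.67) and Dlg2 (-1.01) went the same way. For Lrrtm4 the 5 highest nuclei held 84.8% of the saline female and 71.1% of the cocaine female UMIs. The pan-neuronal list had a median of -0.83 over 8 genes, with 2 called lower in males, where 1.18% of all genes were. Its sum was 384 and 396 in the females against 136 and 245 in the males. The spiny neuron list had a median of 0.00884 over 14 genes. Without nuclei that carried other glial or vascular genes 46 genes were called, and Dpp10, Opcml and Syt1 lost their call. With nuclei under 1% neuronal UMIs, a setting chosen after the data were seen, 201 were called, 134 of them also in the main fit. The part of neuronal RNA in these sex differences was not tested.

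Genes higher in males included several of astrocyte function. Apoe, the main lipid carrier of the brain, stood at 2514 (saline) and 2453 (cocaine) CPM in females and 3423 and 4368 in males (0.64 ± 0.111, adjusted p = 0.00257 by edgeR). The cholesterol enzymes Msmo1 (75.6 and 89.9 against 143 and 146, 0.80) and Hmgcs1 (0.81) were called too, and of 24 lipid genes 22 were higher and 2 lower in males with a list median of 0.27. Ptn, a heparin-binding growth factor, stood at 312 and 287 against 467 and 475 (0.65, adjusted p = 0.00155). Tnc (0.82), Clu (0.52), Slc7a11 (0.48) and Grm3 (0.44) were also higher in males, against a median of 0.00344 over all genes.

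Sex also moved genes named for cocaine. Pde10a was lower in males (-1.03), with log2 ratios of -1.39 among saline and -0.89 among cocaine libraries. Without the cocaine female library the value was 0.49. That fit has no treatment term and sets saline females against males of both treatments, so its sign says nothing on sex alone. Erbb4 (-0.66), Slc39a12 (-0.65), Sntg1 (-0.82) and Fkbp5 (-0.64) were lower in males, and so were 2 further glucocorticoid-responsive genes, Zbtb16 (-0.52) and Hif3a (-0.72). Slc6a11 did not differ beyond its spread (0.058 ± 0.113, adjusted p = 0.924).

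**Figure D5:**
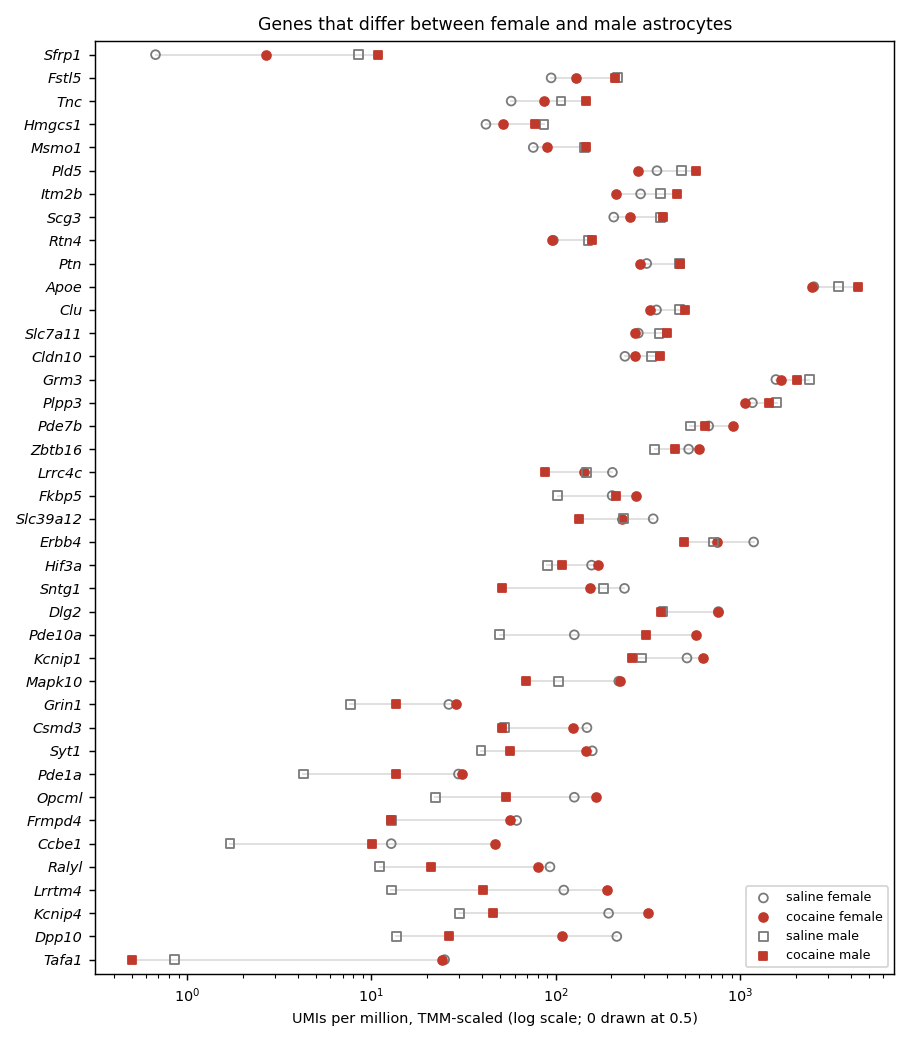
Level of the genes called between male and female astrocytes apart from the Y-linked ones, 1 point per library (log axis, 0 drawn at 0.5). Circles are female and squares male pools. For genes such as Dlg2 and Syt1 the sexes stand apart in both treatments.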

How the data were processed

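Raw UMI counts per gene and nucleus were deposited by the authors as 10x matrices, made with Cell Ranger 6.1.2 per the file headers, on genome build rn7 per the submitters' processing notes. How barcodes were counted and filtered is not given in the sources used here. Gene symbols are those of the files: 7162 of 30560 features have none, and 375 of 395 list symbols were found. The members, lists and comparisons were chosen with earlier results of these data known. Counts of the chosen nuclei were summed per library and tested with edgeR 4.0.16 (TMM scaling, filterByExpr, quasi-likelihood test, Benjamini-Hochberg adjustment at 0.05), with sex or treatment as covariate. Agt classes and cell classes were tested with library as a block, after thinning to 1500 UMIs for Agt. Levels outside the tests are CPM (UMIs per 1000000 UMIs of the class). Named genes were, for each direction, up to 12 of the lowest adjusted p whose sign held in every stratum, plus all called list genes and 5 genes named earlier. DESeq2 1.42.0 and other settings were alternatives. Sex pairs the libraries of the treatments, so its term is the replicate block. On simulated counts, the treatment test recovered 76% of 2-fold and 100% of 4-fold changes with 8 false calls among 10289 genes. The Agt test recovered 92% and 100% with 7 among 5397, and the class difference 17% and 74% with 3 among 14257. The simulation gave every gene the same dispersion of 0.02 and no sex or pool effect, and it changed only genes above a minimum count. These rates therefore need not hold for the real counts, least of all for genes with few UMIs. Doublets were scored with Scrublet in scanpy 1.11.5, and 0.8% per 1000 nuclei were removed in one alternative. Promoter sequences were not used here, and values of some genes are not reported here.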

Additional observations from a re-analysis of the deposited data

Results flagged for a closer look

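The glutamate receptor gene Grm8 moved in opposite directions in the sexes. Its log2 ratio of cocaine over saline was 2.35 in females, from 12 and 63 UMIs, and -0.58 in males, from 2 and 1 UMIs. The difference between the sexes was not tested.

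For these genes the cocaine log2 fold change of astrocytes differed from that of spiny neuron nuclei, by the class-by-treatment term of edgeR with Benjamini-Hochberg adjustment. The difference was positive for Pde10a (2.31), Cntn5 (3.11), Grik1 (2.98), Nrg1 (1.08), Foxp2 (1.97), Tafa2 (1.87), Grm7 (1.34), Marchf1 (1.55), Ccbe1 (2.92), Lrrtm4 (1.14), Hdac4 (0.73) and Ca12 (0.67). It was negative for Mpp6 (-1.15), Nnat (-0.90), Fosb (-6.16), Slc6a11 (-0.71), Kcnc2 (-0.91), Ptch1 (-0.71), Ldb2 (-1.22) and Sntg1 (-0.96). The Fosb value rested on the saline female library, where astrocytes stood at 21.6 CPM, against 0.855 in the saline male, 0.671 in the cocaine female and 0 in the cocaine male library. Spiny neurons stood at 4.23, 2.50, 9.49 and 7.46 in the same order. For Grik1, a kainate receptor subunit, astrocytes stood at 6.75, 2.57, 36.9 and 5.47 and spiny neurons at 117, 74.2, 67.4 and 54.9 CPM, and neither gene passed the low-count filter in the fit of astrocytes alone.

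Against oligodendrocyte nuclei the difference was positive for Pde10a (1.50), Tafa2 (1.58), Marchf1 (1.42), Cntn5 (1.54), Ell2 (0.83), Ccbe1 (2.93) and Hdac4 (0.62). It was negative for Hs6st3 (-2.67), Kcnc2 (-2.73), Kcnip1 (-1.65), Nnat (-1.26), Mpp6 (-1.15), Adcy8 (-3.02), Ptch1 (-0.73), Ldb2 (-1.95) and Sntg1 (-1.17). For Hs6st3 the cocaine value was 2.12 in oligodendrocytes (adjusted p = 0.00281 by edgeR) and -0.63 in astrocytes (adjusted p = 0.279). For Kcnip1 the values were 1.72 and 0.086, and for Adcy8 2.17 and -0.87. Adcy8 stood at only 1.51, 1.90, 10.1 and 4.27 CPM in oligodendrocytes. For Kcnc2, Nnat, Mpp6, Ptch1, Ldb2 and Sntg1 the astrocyte fall was larger than the oligodendrocyte rise. Oligodendrocyte sums of the pan-neuronal list were 317 and 349 CPM with saline and 793 and 556 with cocaine (female, then male). The part of neuronal RNA in these differences was not tested.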

How the results depend on the processing

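The count of 76 genes between cocaine and saline became 3 by DESeq2, 31 with equal numbers of nuclei, 41 without the nuclei richest in neuronal RNA, 14 without high doublet scores, 148 without the low-count filter, 49 after thinning and 0 without the sex term, which is the fit without the replicate block. Settings chosen after the data were seen gave 124 with nuclei under 1% neuronal UMIs, 31 in Agt-positive and 17 in Agt-negative nuclei. Without 1 library, in fits that have no sex term and are unbalanced for sex, Lrrtm4 ran from -0.68 to 3.20. The 173 genes between the sexes became 18 by DESeq2, 277 without the filter, 46 without nuclei carrying other glial or vascular genes, 37 without the treatment term and 113 to 183 without 1 library, where Pde10a ran from -2.81 to 0.49, Slc6a11 from -0.53 to 0.56 and Nr4a3 from -1.63 to 0.47. Slc6a11 turned sign when the saline male or the cocaine female (-0.28) library was left out. These 3-library fits of sex have no treatment term, so treatment is unbalanced between the sexes in them. The 366 genes between Agt classes became 120 by DESeq2, 172 without the library block, 551 without thinning and 234 to 368 without 1 library, with 234 reached without the saline male one. The 71 differences from spiny neurons became 129 with RLE scaling, 0 without the class-by-sex term, 109 without the filter and 0 to 109 without 1 library. The 132 from oligodendrocytes became 3 without the class-by-sex term and 1 to 14 without 1 library. The difference in the share of astrocytes among nuclei, -0.506 points, was -0.329 with a stricter transporter minimum and -0.617 to -0.395 without 1 library. The causes were not tested.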
